A study of Homo sapiens with 36 samples.

Results

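The Sprouty genes SPRY1, SPRY2 and SPRY4, the Spred genes SPRED1, SPRED2 and SPRED3, and the PEA3 group of ETS transcription factor genes ETV1, ETV4 and ETV5 were followed in human non-small cell lung cancer cells given an RNA aptamer against EGFR. These 9 genes were taken by name, with earlier results of these data known, and all 9 were found among the 66366 genes of each library. RNA was sequenced in 36 libraries, with 3 libraries for each of 12 groups made from 4 cell lines and 3 treatments. A549 has wild-type EGFR, H3255 has the L858R form, H1975 has L858R together with T790M, and H820 has T790M together with an exon 19 deletion (Ex19del). MinE07, an RNA aptamer that binds EGFR, or an extended form of C36, a control aptamer, was given at 3 µM for 24 h, and vehicle wells received DPBS with magnesium for the same time. All wells held 1% serum during treatment, in DMEM for A549 and in RPMI for the other lines, so that medium and line cannot be told apart for A549. Each EGFR genotype is represented by a single established line, which also differs from the others in its remaining genome.

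Receptor tyrosine kinases such as EGFR signal through Ras and the ERK kinases, and ERK activity raises the transcription of many of its own inhibitors. Sprouty proteins dampen receptor signalling upstream of ERK, and Spred proteins bring the Ras inactivator neurofibromin to the membrane. ETV1, ETV4 and ETV5 are transcription factors whose genes are held down by the repressor CIC until ERK signalling relieves it, and whose proteins are degraded through the COP1 and DET1 ubiquitin ligase.

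Upstream sequences are shown for 3 genes with contrasting results below, ETV1, which fell in both L858R lines, SPRED2, which fell more in H3255 than in any other line, and SPRY2, which fell in none. They were taken from RefSeq promoter entries on GRCh38.p14 and are written 5′ to 3′ on the gene's own strand, without bases of annotated exons. Capitals mark the octamer bound by CIC (TGAATGAA, TGAATGGA, TCAATGAA or TCAATGGA) and the ETS core CCGGAA, each searched on both strands.
ETV1, chr7:13991426-13991675, minus strand, the 250 bases up to the gene's start: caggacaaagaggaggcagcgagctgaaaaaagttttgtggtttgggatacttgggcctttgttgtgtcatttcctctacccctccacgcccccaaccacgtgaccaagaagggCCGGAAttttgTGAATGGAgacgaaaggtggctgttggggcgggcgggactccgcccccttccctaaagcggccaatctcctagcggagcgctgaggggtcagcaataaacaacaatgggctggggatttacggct
SPRED2, chr2:65432638-65432849, minus strand, 212 bases that end at the first annotated exon: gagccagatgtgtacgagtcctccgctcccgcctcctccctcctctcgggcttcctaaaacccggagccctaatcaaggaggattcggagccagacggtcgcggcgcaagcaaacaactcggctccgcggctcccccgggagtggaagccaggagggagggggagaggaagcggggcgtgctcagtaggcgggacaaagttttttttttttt
SPRY2, chr13:80341127-80341376, minus strand, the 250 bases up to the gene's start: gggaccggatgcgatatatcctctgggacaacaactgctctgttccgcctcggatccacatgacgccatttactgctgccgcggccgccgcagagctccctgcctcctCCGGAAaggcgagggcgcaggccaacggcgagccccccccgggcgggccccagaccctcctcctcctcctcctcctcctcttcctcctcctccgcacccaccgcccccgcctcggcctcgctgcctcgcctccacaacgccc

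In ETV1 the ETS core lies 136 bases and the CIC octamer 125 bases before the start, and in SPRY2 the ETS core lies 142 bases before it. No match to these motifs or to the AP-1 motif TGACTCA was found in the SPRED2 window. RefSeq promoter entries were matched for 7 of the 9 genes, with 17 start sites, and ETV4 and ETV5 had none. Over the 250 bases before each start site, the CIC octamer was found at 2 of the 17 sites, 1 each in ETV1 and SPRED3, and in 3.18% of 35116 promoters. The ETS core was found at 5 of the 17 sites, in ETV1, SPRY1 and SPRY2, and in 14.5% of all promoters. Of these sites, 2 in ETV1 have overlapping windows that share the same match. The AP-1 motif was found at 1 site, in SPRED3, and in 4.20% of all promoters. A match describes these letters and was not tested as a site.

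Levels are given in FPKM, which corrects for gene length and for the number of mapped fragments, and the files hold no read counts. Libraries differed in relative depth, from 0.590 to 1.38 of their median, and between 13236 and 14267 genes exceeded 1 FPKM in a library. No pair of libraries was identical, and none of the 324 values of the 9 genes was listed at 0. All 5 epithelial markers (EPCAM, CDH1, KRT8, KRT18 and KRT19) reached a median of 1 FPKM in every line, and none of 3 endothelial markers did in any. Of 5 alveolar and lung lineage markers, 4 did so in H3255, 2 in H820, 1 in H1975 and 0 in A549. Of 4 fibroblast markers, 2 did so in H1975 (COL1A1 and COL1A2), 1 in H3255 (COL1A1) and 0 in H820 and A549. CD68, which is also made by many carcinoma cells, was the only one of 4 immune markers at that level, and PTPRC had at most 0.0520 FPKM in any library.

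In vehicle-treated cells, all 8 of the genes with a mean of at least 1 FPKM over the 36 libraries were highest in H3255, and SPRED3 alone was lowest there. Tests between lines used limma on log2(FPKM + 0.5), two-sided, with Benjamini-Hochberg adjustment and a threshold of 0.05. Genes were counted where their mean reached 1 FPKM in both lines, which SPRY1, SPRY4 and ETV1 did not in H820, and the levels of these 3 there are given without a test. H3255 exceeded H1975 and A549 in 8 of 8 genes and H820 in 5 of 5, where 37.8%, 44.8% and 45.5% of all genes counted in the same way were called higher. H1975 exceeded H820 in 5 of 5, where 50.5% of all genes were called higher. Between H1975 and A549, 3 genes were called higher in H1975 (51.2% of all genes) and 4 higher in A549 (32.7%). Between H820 and A549, SPRY2 was higher in H820 (43% of all genes) and the other 4 counted were higher in A549 (41.8%). A bulk level cannot tell more cells with a transcript from more transcript per cell.

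**Figure D1:**
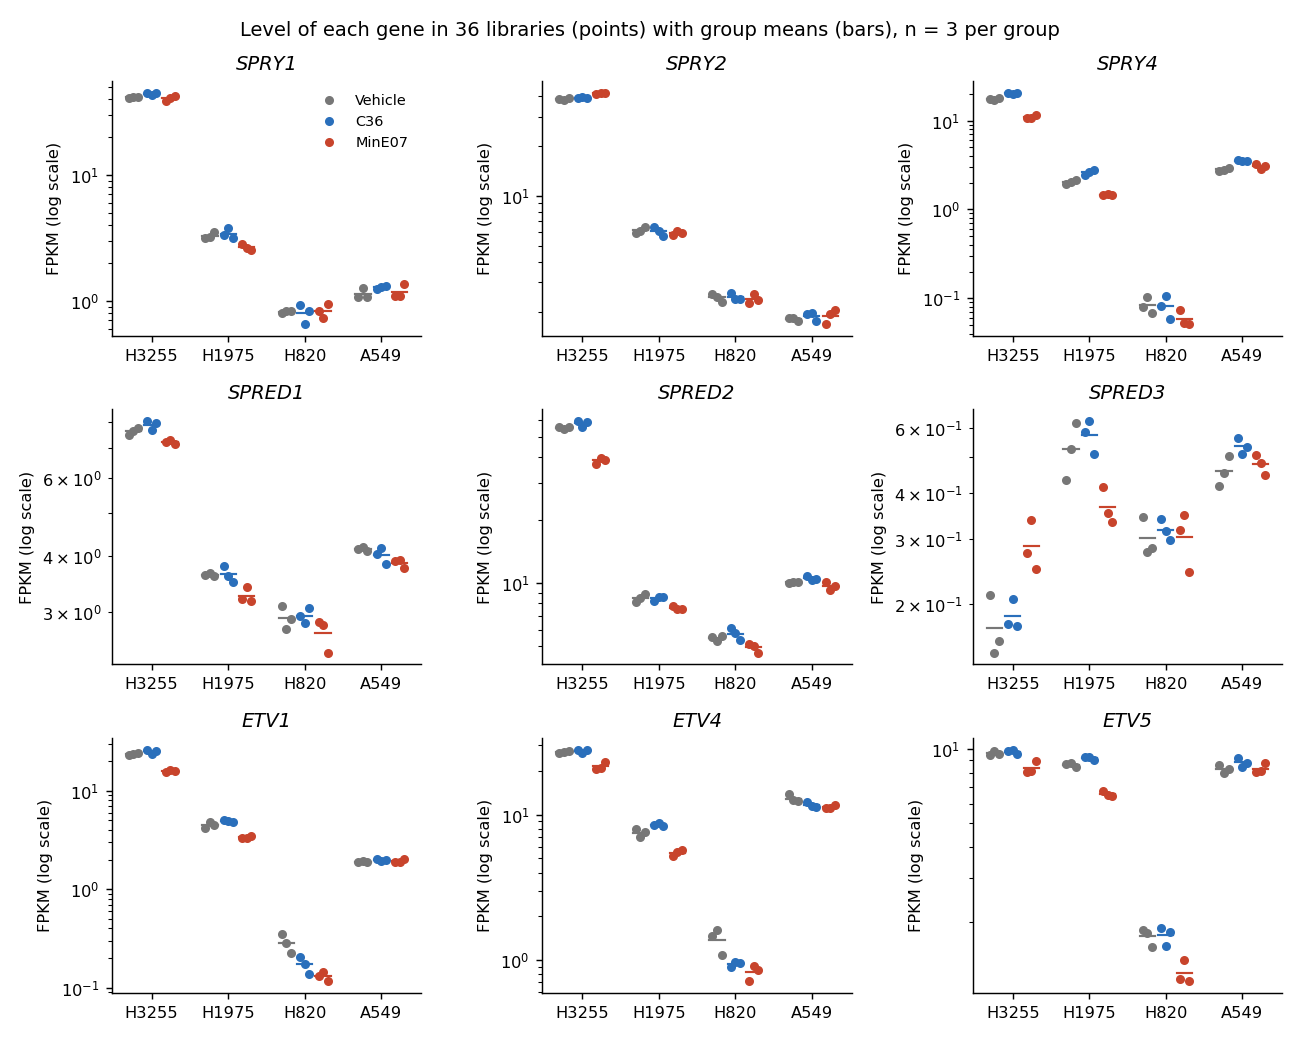
Level of each of the 9 genes in FPKM on a log axis, by cell line, with 1 point per library, bars at the mean of the 3 libraries of a group, and grey, blue and red for vehicle, C36 and MinE07. By the grey vehicle points, H3255 stands at the top of every panel but that of SPRED3. The red points lie below the grey and blue ones for SPRY4, SPRED2 and the ETV genes in H3255.

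The widest range belonged to SPRY4, an inhibitor whose transcription follows ERK activity. Its vehicle level was 17.4 ± 0.375 FPKM (SD, n = 3) in H3255, 2.81 ± 0.122 in A549, 2.04 ± 0.113 in H1975 and 0.0841 ± 0.0186 in H820. H3255 was thus 207-fold above H820, and the libraries of neighbouring lines in that order did not overlap. No share of all genes is given for such separation between lines, and many genes differed between these lines, as the shares above show. ETV1 spanned 82.8-fold, from 23.6 ± 0.528 FPKM in H3255 through 4.51 ± 0.325 in H1975 and 1.90 ± 0.0306 in A549 to 0.286 ± 0.0619 in H820, again without overlap.

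SPRY1 spanned 50.1-fold, with 41.2 ± 0.201 FPKM in H3255, 3.28 ± 0.185 in H1975, 1.14 ± 0.113 in A549 and 0.822 ± 0.014 in H820. SPRY2, which was the only one of the 8 with its lowest level in A549, ran from 38.4 ± 0.615 FPKM in H3255 through 6.20 ± 0.265 in H1975 and 2.44 ± 0.136 in H820 to 1.81 ± 0.0474, a 21.2-fold span. ETV4 spanned 19.5-fold, with 26.9 ± 0.475 FPKM in H3255, 12.9 ± 0.777 in A549, 7.52 ± 0.471 in H1975 and 1.38 ± 0.265 in H820. No libraries of neighbouring lines in these orders overlapped, again without a share of all genes to set beside it.

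SPRED2 was the most abundant of the 9 in H3255 vehicle cells, at 55.3 ± 0.583 FPKM, and stood at 10.1 ± 0.0496 in A549, 8.50 ± 0.405 in H1975 and 5.48 ± 0.164 in H820. SPRED1, the family member mutated in Legius syndrome, varied least of the tested genes, with 7.64 ± 0.138 FPKM in H3255, 4.15 ± 0.0427 in A549, 3.64 ± 0.0342 in H1975 and 2.91 ± 0.175 in H820, a 2.63-fold span. All neighbours in the SPRED1 and SPRED2 orders were called different. In the same directions, 44.8% of all genes were called for H3255 over A549, 32.7% for A549 over H1975 and 50.5% for H1975 over H820.

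ETV5 was close in 3 of the lines, at 9.58 ± 0.171 FPKM in H3255, 8.61 ± 0.183 in H1975 and 8.28 ± 0.337 in A549, and lower at 1.75 ± 0.14 in H820. H1975 and A549 did not differ by the test (log2 difference 0.05, 95% interval -0.06 to 0.16, adjusted p = 0.351), and the sign turned to -0.15 with adjusted p = 0.0175 when libraries were rescaled by medians of ratios. That rescaling moved the median of all genes between these lines from 0.19 to 0.0019. SPRED3 was low everywhere, with 0.526 ± 0.0915 FPKM in H1975, 0.458 ± 0.0447 in A549, 0.301 ± 0.0375 in H820 and 0.172 ± 0.0346 in H3255, and the H1975 and A549 libraries overlapped.

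The contrast of MinE07 with C36 asks what the EGFR aptamer does beyond a control aptamer. In H3255, SPRY4, ETV1 and SPRED2 fell most, ETV4 and ETV5 fell less, SPRY1 and SPRED1 fell slightly, and SPRY2 rose slightly. In H1975, SPRY4 and all 3 PEA3 genes fell to between 55.8% and 71.4% of their C36 means, SPRY1 to 78.1% and SPRED2 to 90.0%. No tested gene of the 9 passed in H820 or A549. Of the 8 genes tested in H3255, 7 were called lower, where 20% of all genes were, and 1 higher, where 16.6% were. Of the 8 tested in H1975, 6 were called lower, where 11.1% of all genes were.

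Of the 5 genes tested in H820, limma called 0, where 0.0364% of all genes were called in either direction, and 2 had an unadjusted p under 0.05. Of the 8 tested in A549 it called 0, where 0% of all genes were called, and 2 had an unadjusted p under 0.05. The share of all genes at an unadjusted p under 0.05 was not computed. Such counts, here and below, therefore cannot be set against the shares of calls beside them. SPRED3 was under the floor of 1 FPKM in every line and was not tested, and SPRY1, SPRY4 and ETV1 were under it in H820. The median change of the tested genes was -0.38 in H1975 (-0.01 over all genes), -0.28 in H3255 (-0.01), -0.12 in H820 (0.01) and -0.07 in A549 (0.0016). The H3255 count fell from 8 to 5 without C36 replicate 1 or without C36 replicate 3, when the calls of SPRY1, SPRY2 and SPRED1 were lost.

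**Figure D2:**
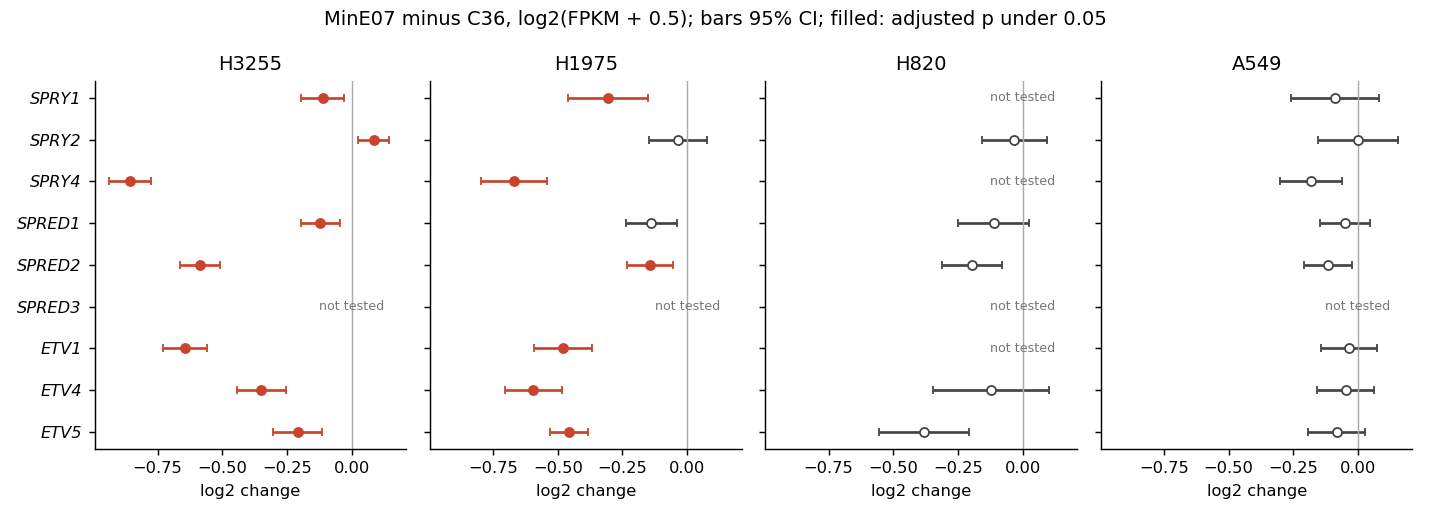
Log2 change of each gene between MinE07 and C36 in the 4 lines, with bars for the 95% confidence interval and filled points for an adjusted p under 0.05. SPRY4, SPRED2 and ETV1 lie farthest left in H3255, SPRY4 and ETV4 do so in H1975, and no point is filled in H820 or A549.

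Among the Sprouty genes, SPRY4 had the largest change in each of the 3 lines where it was tested. In H3255 it stood at 10.7, 10.8 and 11.6 FPKM with MinE07, at 20.4, 20.01 and 20.6 with C36, and at 17.4, 17.1 and 17.8 with vehicle. The 3 treatments did not overlap, with MinE07 lowest and C36 highest. MinE07 reached 54.1% of the C36 mean, a log2 change of -0.86 (95% interval -0.94 to -0.78, adjusted p = 1.51e-07).

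In H1975 the same order of treatments was seen for SPRY4 at a lower level. MinE07 libraries had 1.44, 1.49 and 1.44 FPKM, C36 libraries 2.42, 2.66 and 2.75, and vehicle libraries 1.94, 2.02 and 2.16, without overlap. MinE07 reached 55.8% of C36, with a log2 change of -0.67 (-0.80 to -0.54, adjusted p = 0.000122), which the added 0.5 makes smaller than the ratio of the FPKM values.

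In A549, SPRY4 had 3.25, 2.84 and 3.06 FPKM with MinE07, 3.60, 3.47 and 3.498 with C36, and 2.71, 2.78 and 2.95 with vehicle. MinE07 lay below every C36 library but overlapped vehicle, and its log2 change against C36 of -0.18 (-0.30 to -0.06, adjusted p = 0.357) did not pass the test. It passed with an adjusted p of 0.0388 when all 36 libraries shared 1 estimate of the spread. H820 had at most 0.107 FPKM of SPRY4 in any library, MinE07 and C36 overlapped, and any change there is limited by the added 0.5.

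SPRY1 was abundant in H3255 but moved little there. It had 38.4, 41.0 and 42.4 FPKM with MinE07, 44.8, 42.6 and 44.2 with C36, and 41.0, 41.4 and 41.3 with vehicle. MinE07 lay just below C36 and on both sides of vehicle. The log2 change against C36 was -0.11 (-0.20 to -0.03, adjusted p = 0.0406), and the call was lost in 7 of 9 fits that left out 1 library, all but those without C36 replicate 2 or MinE07 replicate 3, with an adjusted p of up to 0.129.

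In H1975, SPRY1 had 2.85, 2.62 and 2.54 FPKM with MinE07 against 3.31, 3.80 and 3.15 with C36 and 3.15, 3.20 and 3.49 with vehicle. MinE07 was below both other groups in each library, with a log2 change against C36 of -0.30 (-0.46 to -0.15, adjusted p = 0.0134). The adjusted p was 0.052 without MinE07 replicate 3. SPRY1 ranged from 0.651 to 0.944 FPKM over the 9 H820 libraries and from 1.08 to 1.36 over the 9 A549 libraries, where the change of -0.09 (-0.26 to 0.08) was not called.

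SPRY2, a Sprouty that binds the ubiquitin ligase CBL, fell in no line. In H3255 it had 40.9, 41.5 and 41.8 FPKM with MinE07, 38.8, 39.3 and 39.0 with C36, and 38.5, 37.7 and 38.9 with vehicle. MinE07 lay above both other groups, by 0.08 over C36 on the log2 scale (0.02 to 0.15, adjusted p = 0.032). That call was lost without any 1 of the C36 replicates or without MinE07 replicate 2 or 3 (adjusted p up to 0.0905), with medians of ratios, and with all 36 libraries in 1 fit, where the adjusted p was 0.209.

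In A549 the SPRY2 change against C36 was 0.0012 (-0.15 to 0.16), in H820 it was -0.03 (-0.16 to 0.10), and in H1975 -0.03 (-0.15 to 0.08). MinE07 and C36 libraries overlapped in all 3 of these lines. In H3255, the 95% intervals of SPRY4, SPRY1 and SPRY2 did not overlap one another, and the difference between genes was not tested.

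SPRED2 was the Spred gene with the clearest change, and that was in H3255. It had 37.0, 39.7 and 38.9 FPKM with MinE07, 59.4, 56.0 and 59.0 with C36, and 55.4, 54.6 and 55.8 with vehicle. MinE07 was far below both other groups, at 66.3% of C36 and with a log2 change of -0.59 (-0.67 to -0.51, adjusted p = 1.2e-06).

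In H1975, SPRED2 had 7.77, 7.56 and 7.55 FPKM with MinE07, 8.24, 8.62 and 8.55 with C36, and 8.08, 8.52 and 8.89 with vehicle. MinE07 was below both groups without overlap, at 90.0% of C36 and with a log2 change of -0.14 (-0.23 to -0.05, adjusted p = 0.0315). The call was lost without C36 replicate 2 or 3 and without any 1 of the MinE07 replicates, with an adjusted p of up to 0.105.

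SPRED2 was also below C36 in every MinE07 library of H820 and A549, but did not pass the test in either. The H820 values were 5.14, 5.03 and 4.65 FPKM with MinE07 and 6.09, 5.77 and 5.34 with C36, a log2 change of -0.20 (-0.31 to -0.08, adjusted p = 0.308). The A549 values were 10.1, 9.26 and 9.70 FPKM with MinE07 and 10.9, 10.3 and 10.5 with C36, a change of -0.12 (-0.21 to -0.03, adjusted p = 0.386). Without overlap in the lower direction, 6.78% of all genes were found in H820 and 10.1% in A549, against 2 of the 5 tested genes in H820 (SPRED2 and ETV5) and 2 of the 8 in A549 (SPRY4 and SPRED2).

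The SPRED1 changes were small. In H3255 it had 7.21, 7.29 and 7.15 FPKM with MinE07 against 8.04, 7.68 and 7.95 with C36, below C36 in every library (log2 change -0.12, -0.20 to -0.05, adjusted p = 0.0179). Without C36 replicate 1 or 3 the adjusted p rose as far as 0.0649. In H1975 it had 3.20, 3.41 and 3.18 FPKM with MinE07 against 3.80, 3.62 and 3.51 with C36, also without overlap, and the change of -0.14 missed the threshold (adjusted p = 0.0542, and 0.0456 without MinE07 replicate 2). The changes were -0.11 (-0.25 to 0.03) in H820 and -0.05 (-0.15 to 0.05) in A549, both with overlap.

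SPRED3, a low transcript in every line, lay on opposite sides of C36 in the L858R lines. In H3255 it had 0.274, 0.337 and 0.249 FPKM with MinE07, 0.176, 0.206 and 0.174 with C36, and 0.212, 0.147 and 0.158 with vehicle, and MinE07 was highest in each library. In H1975 it had 0.416, 0.352 and 0.334 FPKM with MinE07, 0.586, 0.627 and 0.509 with C36, and 0.435, 0.526 and 0.618 with vehicle, and MinE07 was lowest in each library.

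Fitted without the floor on low values, SPRED3 differed from C36 by -0.31 in H1975 (adjusted p = 0.0844) and by 0.20 in H3255 (0.093), neither of which passed. The MinE07 and C36 groups of SPRED3 overlapped in H820, where the 9 libraries held 0.244 to 0.349 FPKM. In A549, MinE07 libraries had 0.447 to 0.506 FPKM, below C36 at 0.512 to 0.566 and overlapping vehicle at 0.417 to 0.506.

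The PEA3 genes fell together in both L858R lines. ETV1 in H3255 had 15.4, 16.0 and 15.9 FPKM with MinE07, 26.1, 23.7 and 25.2 with C36, and 23.2, 23.5 and 24.2 with vehicle. MinE07 was clearly below both groups, at 63.2% of C36 (log2 change -0.65, -0.73 to -0.56, adjusted p = 1.08e-06). In H1975, ETV1 had 3.34, 3.33 and 3.47 FPKM with MinE07, 5.03, 4.88 and 4.82 with C36, and 4.19, 4.84 and 4.49 with vehicle. MinE07 was again lowest without overlap, at 68.9% of C36 (-0.48, -0.59 to -0.37, adjusted p = 0.000304).

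In A549, ETV1 had 1.89, 1.88 and 2.03 FPKM with MinE07 and 2.04, 1.96 and 1.98 with C36, which overlapped (change -0.03, -0.14 to 0.07). H820 held little ETV1, with 0.132, 0.144 and 0.116 FPKM after MinE07, 0.206, 0.175 and 0.138 after C36, and 0.349, 0.282 and 0.225 after vehicle. There the 2 aptamer groups overlapped each other and both lay below vehicle. ETV1 was under the floor for the tests within H820. Fitted without the floor it differed from vehicle by -0.31 with MinE07 (adjusted p = 0.162) and by -0.22 with C36 (0.319), neither of which passed. ETV1 entered the fit of all 36 libraries only through the other lines, and that fit is not used as a test of it in H820.

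ETV4 in H3255 had 20.6, 21.1 and 22.9 FPKM with MinE07, 28.1, 26.6 and 27.9 with C36, and 26.4, 27.2 and 27.3 with vehicle. MinE07 was below both groups, at 78.2% of C36 (log2 change -0.35, -0.44 to -0.26, adjusted p = 0.000134). In H1975, ETV4 had 5.24, 5.50 and 5.69 FPKM with MinE07, 8.43, 8.74 and 8.39 with C36, and 7.96, 7.02 and 7.59 with vehicle. The 3 groups did not overlap, and MinE07 was at 64.3% of C36 (-0.59, -0.70 to -0.49, adjusted p = 0.000106).

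ETV4 in H820 had 0.713, 0.911 and 0.855 FPKM with MinE07, 0.889, 0.975 and 0.960 with C36, and 1.45, 1.61 and 1.09 with vehicle. MinE07 overlapped C36 (change -0.12, -0.35 to 0.10, adjusted p = 0.718), and both aptamers lay below vehicle. In A549, ETV4 had 11.1, 11.1 and 11.6 FPKM with MinE07, 12.2, 11.6 and 11.3 with C36, and 13.8, 12.6 and 12.4 with vehicle. The aptamer groups again overlapped each other below vehicle (MinE07 against C36 -0.05, -0.16 to 0.06).

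DHX8, an RNA helicase gene that overlaps ETV4 in RefSeq, ranged from 7.51 to 10.4 FPKM over the 36 libraries, and how reads shared by overlapping genes were counted is not given in the sources used here. Its MinE07 and C36 libraries overlapped in H1975, at 9.79 to 10.4 and 9.97 to 10.4 FPKM.

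ETV5 in H3255 had 8.03, 8.11 and 8.93 FPKM with MinE07, 9.75, 9.92 and 9.496 with C36, and 9.46, 9.78 and 9.51 with vehicle. MinE07 was lowest without overlap, at 85.9% of C36 (log2 change -0.21, -0.30 to -0.11, adjusted p = 0.00366). In H1975, ETV5 had 6.72, 6.50 and 6.47 FPKM with MinE07, 9.27, 9.29 and 8.996 with C36, and 8.64, 8.79 and 8.42 with vehicle. MinE07 was at 71.4% of C36, with a change of -0.46 (-0.53 to -0.38, adjusted p = 6.13e-05), and no libraries overlapped.

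ETV5 in H820 had 1.17, 1.41 and 1.15 FPKM with MinE07, 1.89, 1.59 and 1.82 with C36, and 1.85, 1.81 and 1.59 with vehicle. MinE07 lay below both groups at 70.3% of C36, and the change of -0.38 (-0.55 to -0.21) did not pass the test across all genes of that line (adjusted p = 0.218). With the spread shared over all 36 libraries it did, at an adjusted p of 0.000381. In A549, ETV5 had 8.03, 8.10 and 8.76 FPKM with MinE07 and 9.21, 8.47 and 8.76 with C36, which overlapped (-0.08, -0.19 to 0.03).

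Summed over each family, H3255 went from 103 ± 1.16 FPKM of Sprouty transcripts with C36 to 93.0 ± 2.89 with MinE07, from 66.2 ± 2.05 to 46.0 ± 1.43 of Spred, and from 62.3 ± 1.86 to 45.7 ± 1.91 of PEA3 (SD, n = 3). In H1975 the PEA3 sum went from 22.6 to 15.4 FPKM, the Spred sum from 12.7 to 11.3 and the Sprouty sum from 12.1 to 10.1. These sums are descriptions and were not tested.

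Each aptamer was also set against vehicle, which asks whether the control aptamer itself moves these genes. The comparisons share their libraries, so that a high C36 group lowers MinE07 against C36 without moving MinE07 against vehicle. With MinE07 against vehicle, H3255 had 5 genes called lower, where 17.2% of all genes were, and SPRY2 called higher, where 21.4% were. H1975 had 7 called lower (12.9% of all genes), H820 had 2 (1.03%), and A549 had 0 of 8 (0.216% in either direction, and 1 of the 8 at an unadjusted limma p under 0.05). Of the 2 in H820, ETV4 passed the floor only through its vehicle group, as given below. The H1975 count was 4 in place of 7 without MinE07 replicate 3, vehicle replicate 2 or vehicle replicate 3, and without the floor on low values.

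**Figure D3:**
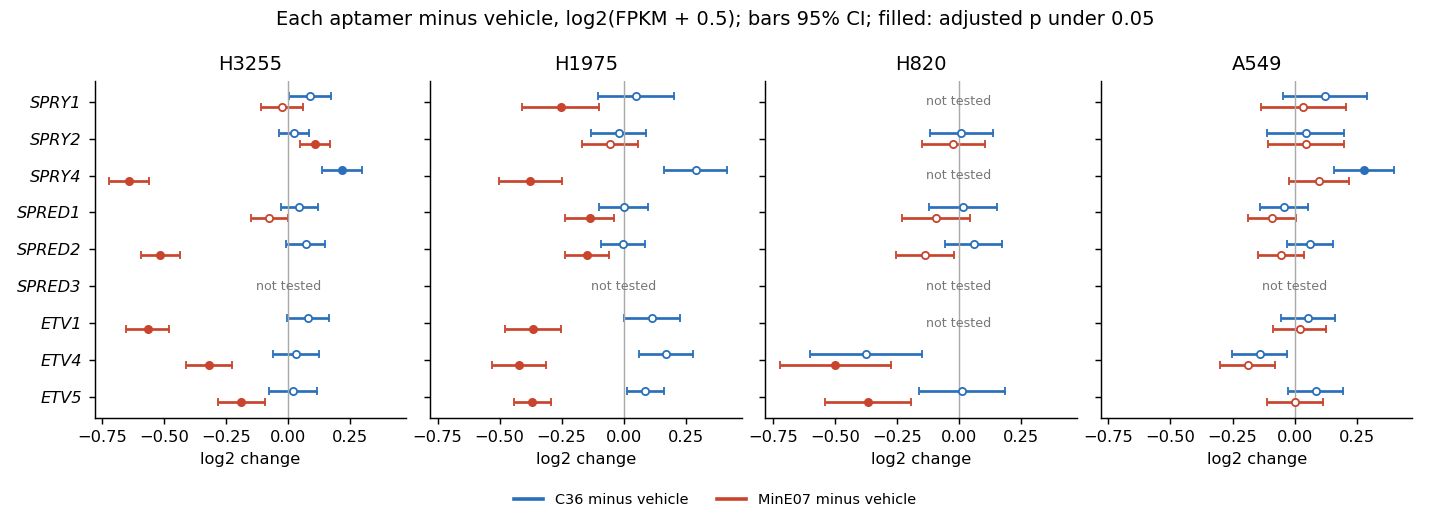
Log2 change of each gene with MinE07 (red) and C36 (blue) against the shared vehicle libraries, with 95% confidence intervals and filled points for an adjusted p under 0.05. SPRY4 lies right of 0 with C36 and left of 0 with MinE07 in H3255 and H1975, and ETV4 lies left of 0 with both aptamers in H820 and A549.

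Against vehicle, the changes in H3255 were -0.64 (-0.72 to -0.56) for SPRY4, -0.57 (-0.65 to -0.48) for ETV1, -0.52 (-0.59 to -0.44) for SPRED2, -0.32 (-0.41 to -0.23) for ETV4 and -0.19 (-0.28 to -0.09) for ETV5. The adjusted p was 7.98e-07 for SPRY4, 2.67e-06 for ETV1, 2.79e-06 for SPRED2, 0.000225 for ETV4 and 0.006 for ETV5. SPRY2 was 0.11 higher (0.05 to 0.17, adjusted p = 0.00942), a call that was lost with medians of ratios and in the 36-library fit (adjusted p up to 0.0957). SPRY1 and SPRED1 were not called, at -0.02 (-0.11 to 0.06) and -0.08 (-0.15 to -0.0014).

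In H1975 against vehicle, ETV4 fell by 0.42, SPRY4 by 0.38, ETV1 by 0.37 and ETV5 by 0.37 on the log2 scale, with adjusted p from 0.000165 (ETV5) to 0.00173 (SPRY4). SPRY1 fell by 0.25 (adjusted p = 0.0254), SPRED2 by 0.15 (0.0248) and SPRED1 by 0.14 (0.0488), and these 3 calls depended on single libraries. Those of SPRY1 and SPRED2 were lost without MinE07 replicate 2 or 3 or vehicle replicate 2 or 3 (adjusted p up to 0.0899), and that of SPRED1 in 8 of 9 leave-outs, all but that of MinE07 replicate 2 (up to 0.14). In H820, ETV4 fell by 0.50 (-0.72 to -0.27, adjusted p = 0.0329) and ETV5 by 0.37 (-0.54 to -0.19, adjusted p = 0.038). The ETV4 call was lost without any 1 of the MinE07 or C36 replicates (adjusted p up to 0.0838), and the ETV5 call without replicate 1 or 3 of either aptamer or vehicle replicate 1 or 2 (up to 0.122). ETV4 in H820 is close to the floor of 1 FPKM, and fell under it in 2 further leave-outs.

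SPRY4 was higher with the control aptamer than with vehicle in H3255 and A549. C36 libraries lay above all vehicle libraries of SPRY4 in H3255, H1975 and A549, and overlapped them in H820. The log2 change of C36 against vehicle was 0.22 in H3255 (0.14 to 0.30, adjusted p = 0.0471), 0.28 in A549 (0.16 to 0.40, adjusted p = 0.0206) and 0.29 in H1975 (0.16 to 0.42, adjusted p = 0.0649). SPRY4 was thus the 1 gene of 8 called higher in H3255, where 0.164% of all genes were, and in A549, where 3.62% were.

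In H1975 limma called 0 of 8 for C36 against vehicle (0.233% of all genes in either direction). At an unadjusted p under 0.05, for which the share of all genes was not computed, there were 4. The SPRY4 call in H3255 was lost without any 1 of the C36 or vehicle replicates or without MinE07 replicate 2, with adjusted p of up to 0.189. In A549 it was lost without any 1 of the C36 replicates or without vehicle replicate 2, with adjusted p of up to 0.0836. The 36-library fit gave adjusted p of 0.000753 in H1975.

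ETV4 lay below vehicle with both aptamers in H820 and A549. In H820, C36 was 0.38 below vehicle on the log2 scale (-0.60 to -0.15, adjusted p = 0.0805), and limma called 0 of 5 genes there (2.85% of all genes in either direction), with 1 at an unadjusted p under 0.05. Without vehicle replicate 3, the lowest of the vehicle libraries, the adjusted p was 0.0267. ETV4 passed the floor in H820 only through vehicle, so that this limma p is no independent support. In A549, ETV4 stood 0.14 below vehicle with C36 (adjusted p = 0.121) and 0.19 below with MinE07 (adjusted p = 0.144), neither called. In H3255 and H1975 the ETV4 change with C36 was instead 0.03 and 0.17, neither called.

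Whether the change between MinE07 and C36 itself differed between lines was tested in 1 fit of all libraries, for 6 pairs of lines. SPRED2 set H3255 apart from the other 3 lines, and SPRY4 and ETV1 set both L858R lines apart from A549. SPRY1, SPRY4 and ETV1, under the floor in H820, were left out of the comparisons with that line, since the added 0.5 holds their log2 change there near 0. For these 3 the FPKM means with MinE07 were 105%, 71.9% and 75.5% of C36 in H820, 78.1%, 55.8% and 68.9% in H1975, and 92.5%, 54.1% and 63.2% in H3255, without a test of the difference. ETV4 was kept by its mean of 1.05 FPKM over the H820 libraries, which it reached only through vehicle.

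Between H3255 and H1975, 2 genes had a lower response in H3255, where 8.24% of all genes did, and 1 a higher one, where 6.33% did. SPRED2 differed by -0.44 (-0.56 to -0.32, adjusted p = 2.1e-06), a call that stood in all 12 leave-outs and all other settings tried. ETV5 differed by 0.25 (0.09 to 0.40, adjusted p = 0.0241), with the larger fall in H1975. The ETV5 call was lost without H1975 C36 replicate 2, H1975 MinE07 replicate 3, H3255 C36 replicate 3 or H3255 MinE07 replicate 3 (adjusted p up to 0.0862), with no filter and with medians of ratios (up to 0.0584). ETV4 differed by the same 0.25 (0.05 to 0.44) and was not called (adjusted p = 0.0876), but was in a fit of the 18 libraries of these lines (0.0168).

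SPRY4 differed between H3255 and H1975 by -0.19 (-0.32 to -0.06, adjusted p = 0.0456). This value depended on the added 0.5, since MinE07 stood at 54.1% and 55.8% of C36 in the 2 lines and the difference was -0.08 with 0.1 added instead (adjusted p = 0.702). The SPRY4 call was also lost with no filter and in 10 leave-outs, all but those of H1975 C36 replicate 3 and H3255 MinE07 replicate 3 (up to 0.158). The count of 3 fell to 1 without H1975 C36 replicate 2, H1975 MinE07 replicate 3 or H3255 C36 replicate 3. ETV1 differed by -0.17 (-0.31 to -0.03, adjusted p = 0.109), not called. SPRED3, fitted without the floor on low values, differed by 0.51 (adjusted p = 0.000226). It was picked for its opposite directions in these lines, so that this p is no independent support.

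H3255 responded more strongly than H820 in 1 of 5 genes counted, SPRED2, at -0.39 (adjusted p = 1.4e-05), where 12% of all genes were lower. ETV4 at -0.23 (adjusted p = 0.103) was called without H820 MinE07 replicate 1, and ETV5 at 0.17 (0.12) without H820 C36 replicate 2 or H820 MinE07 replicate 2, so that the count was 2 without any 1 of these libraries. The ETV4 change in H820 is also made smaller by the added 0.5. H3255 responded more strongly than A549 in 4 genes, where 15.8% of all genes were lower. They were SPRY4 at -0.68, ETV1 at -0.61, SPRED2 at -0.47 and ETV4 at -0.30, with adjusted p of 5.19e-09, 1.02e-07, 5.79e-07 and 0.0208. The ETV4 difference was lost without A549 C36 replicate 3 or H3255 MinE07 replicate 1, with a pseudocount of 0.1 and with no filter, with adjusted p of up to 0.0601.

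Between H1975 and H820, 1 of 5 genes counted was called, ETV4, at -0.47 (adjusted p = 0.00215), where 4.5% of all genes were lower. Its H820 means were under 1 FPKM with both aptamers (0.827 with MinE07, 0.941 with C36), so that the added 0.5 makes its change there smaller. MinE07 stood at 64.3% of C36 in H1975 and at 87.8% in H820, and the call is limited in this way. H1975 responded more strongly than A549 in 4 genes, where 7.7% of all genes were lower, and these were ETV4 at -0.55, SPRY4 at -0.49, ETV1 at -0.44 and ETV5 at -0.37. Their adjusted p were 0.000268, 8.41e-06, 5.91e-05 and 0.00117. Between H820 and A549 limma called 0 of 5 (0.294% of all genes in either direction), and ETV5 alone had an unadjusted p under 0.05, at -0.30 (-0.45 to -0.14, adjusted p = 0.0769). ETV5 was called without H820 C36 replicate 2 or without H820 MinE07 replicate 2, with an adjusted p as low as 0.0259.

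**Figure D4:**
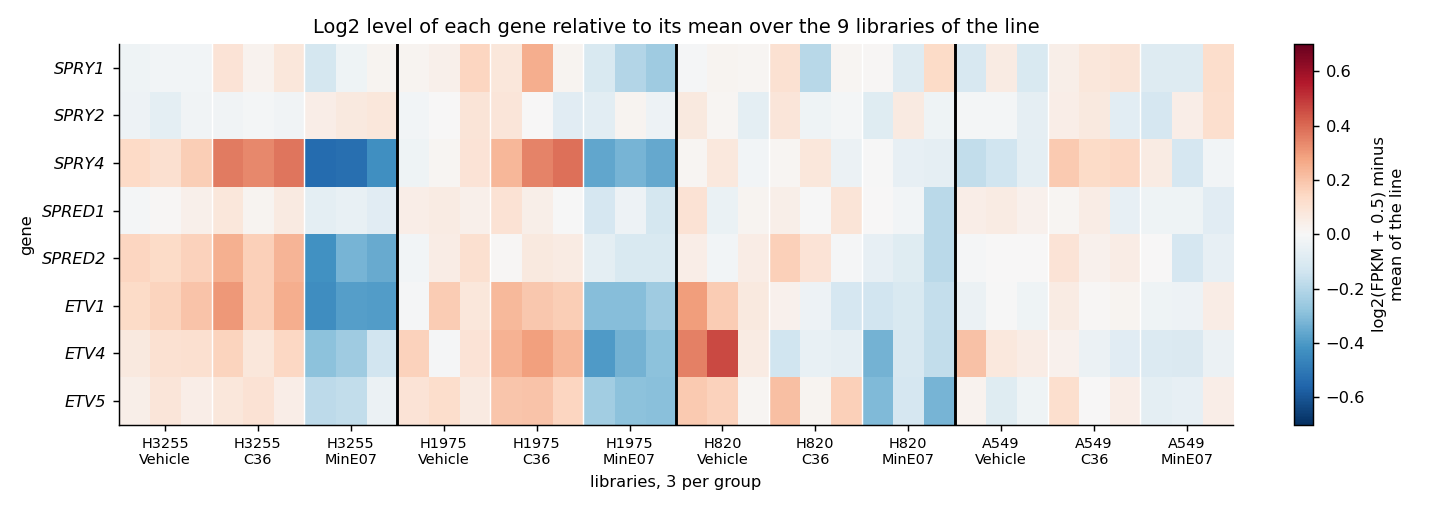
Log2(FPKM + 0.5) of the 8 genes with a mean of at least 1 FPKM, minus the mean of the 9 libraries of the line, with libraries as columns in groups of 3 and blue for low and red for high. SPRY4, SPRED2, ETV1, ETV4 and ETV5 are blue in the MinE07 columns of H3255, the ETV genes and SPRY4 are so in H1975, and SPRY2 stays pale throughout.

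Within lines, several of these genes varied together over the 36 libraries. After centring each gene on its line mean, Pearson's r was 0.89 between SPRY4 and ETV1, 0.85 between SPRY4 and SPRED2, 0.85 between SPRED2 and ETV1, and 0.82 between ETV1 and ETV4. SPRY2 ran from -0.26 to 0.25 with the other 7. These are descriptions, since the libraries share lines and treatments.

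Among 13433 genes compared in the same way, the one most like SPRY4 was DUSP6, a phosphatase of ERK (r = 0.957), followed by PHC2 (0.921) and PRNP (0.921). SPRED2 was most like the growth factor gene VEGFA (0.933), the ERK phosphatase DUSP5 (0.925) and the EGFR ligand EREG (0.922). ETV1 was most like the secreted glycoprotein gene STC1 (0.912), VEGFA (0.905) and DUSP6 (0.905).

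ETV4 was most like NT5E (0.892), FAM20C (0.865) and CDC20 (0.826), and ETV5 was most like the cyclin gene CCND1 (0.821), ETV4 (0.791) and DEGS1 (0.787). SPRED1 and SPRY1 had weaker matches, led by RFWD3 (0.741), ERCC6L (0.721) and ARF6 (0.704) and by PRPF19 (0.731), TCF3 (0.729) and C5orf34 (0.720). The closest genes to SPRY2 were SMIM29 (0.557), LRRC8D (0.547) and TRMO (0.546).

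Other genes whose transcription follows ERK were also lower with MinE07 in the L858R lines. Of 14 listed (phosphatases, immediate early genes, EPHA2, EPHA4, CCND1, MYC, IER3 and PHLDA1), 11 of the 12 tested in H3255 were called lower with MinE07 against C36, where 20% of all genes were, with a median change of -0.68, led by EGR1 at -0.92, DUSP5 at -0.90 and FOSL1 at -0.82. In H1975, 11 of 11 tested were called lower, where 11.1% of all genes were, with a median of -0.34, led by EGR1 at -0.61, DUSP6 at -0.55 and CCND1 at -0.55. In H820, EGR1 was the 1 gene of 9 called (-0.78, adjusted p = 0.00165), in the direction of 0.0145% of all genes, with a median of -0.10. In A549 0 of 11 were called (0% of all genes), with the same median. Against vehicle, MinE07 had 11 of 12 called lower in H3255 (17.2% of all genes) and 10 of 11 in H1975 (12.9%). H820 had 1 of 9 lower (1.03%) and 1 higher (1.99%), and A549 0 of 11 (0.216% in either direction). With C36 against vehicle, 3 of 9 were called higher in H820 (2.85% in either direction) and 3 of 11 in A549 (3.62%). The count was 1 of 11 in H1975 (0.233% in either direction) and 0 of 12 in H3255 (0.164%). The C36 medians ran from 0.09 in H3255 to 0.20 in H820.

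Components of the Ras-ERK cascade itself were called lower in shares near those of all genes. Of 21 tested in H3255, 1 was called higher, the Ras exchange factor SOS1 (0.28), and 5 lower, of which MAP2K1, the gene of a kinase that activates ERK (-0.59), the phosphatase gene PTPN11 (-0.27) and the ubiquitin ligase gene CBL (-0.27) had the largest changes, where 16.6% of all genes were called higher and 20% lower. In H1975, the adaptor gene GAB1 (0.20) and the ERK gene MAPK3 (0.15) were called higher, and 2 were called lower, among them MAP2K1 (-0.22), of 21 tested, where 8.88% of all genes were called higher and 11.1% lower. None of 21 was called in H820 or of 20 in A549. The list medians were 0.0036 in A549, -0.01 in H820, -0.03 in H1975 and -0.08 in H3255.

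Of the 5 genes for repression and degradation of PEA3 factors (CIC, ATXN1, ATXN1L, COP1 and DET1), 0 of 5 were called between MinE07 and C36 in H3255, H820 and A549. In H1975, ATXN1, a partner of CIC, was called higher (0.21, adjusted p = 0.00738), as were 8.88% of all genes. The list medians were -0.08 in A549, -0.0073 in H820, 0.04 in H1975 and 0.0019 in H3255.

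Outside the PEA3 group, other ETS genes were called in both directions. Of 15 tested in H3255, 3 were called higher (16.6% of all genes) and 6 lower (20%), and the largest changes were ETV3 (0.48), EHF (0.26) and ETS1 (-0.25). Of 13 tested in H1975, 1 was called higher, the epithelial factor gene ELF3 (0.36), where 8.88% of all genes were, and 2 lower, ERF (-0.17) and ELK1 (-0.14), where 11.1% were. None of 16 was called in H820 or in A549. Their median was 0.02 in A549 and -0.01 in H820. It was -0.10 in H3255 and -0.02 in H1975, where the 3 PEA3 genes had medians of -0.35 and -0.48.

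Markers of cell type also moved with MinE07 in the L858R lines. In H3255, 2 of 5 epithelial markers were called lower than with C36 (20% of all genes), and their sum was 1542 to 1594 FPKM with MinE07, 1722 to 1761 with C36 and 1822 to 1887 with vehicle. There, 2 of 4 tested alveolar and lung lineage markers were called higher (16.6% of all genes), with a sum of 308 to 328 FPKM against 276 to 282 with C36 and 280 to 287 with vehicle. In H1975, 3 of 3 tested fibroblast markers (COL1A1, COL1A2 and PDGFRB) were called higher (8.88% of all genes), with a sum over all 4 of 16.1 to 17.1 FPKM with MinE07, 12.1 to 13.6 with C36 and 11.98 to 12.8 with vehicle. PDGFRB had a median of 0.95 FPKM in H1975 and passed the floor on its mean only through its higher libraries, so that its call is no independent support. DCN, a defining fibroblast marker, had at most 0.06 FPKM in H1975 and was listed at 0 in 5 of the 9 libraries. Also in H1975, 2 of 5 epithelial markers and the 1 tested lung lineage marker, NKX2-1, were called higher.

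Against vehicle, some markers moved in each of the 4 lines. With MinE07 in H3255, 3 of 5 epithelial markers were called lower (17.2% of all genes) and 3 of 4 lung lineage markers higher (21.4%). In H1975, the 3 tested fibroblast markers and NKX2-1 were called higher with MinE07 (10.8% of all genes), with the same limit for PDGFRB. In H820, the keratin gene KRT19 and NKX2-1 were called lower with both aptamers, at -0.21 and -0.23 with MinE07 (1.03% of all genes) and -0.25 and -0.26 with C36 (1.29%), and SLC34A2 was called higher with MinE07 (0.47, 1.99%). The lung lineage sum in H820 was 32.4 to 35.2 FPKM with MinE07, 32.1 to 33.6 with C36 and 37.2 to 39.3 with vehicle. In A549, CD68, the 1 immune marker tested, was called higher with C36 (0.40, adjusted p = 0.0232, against 3.62% of all genes), and the sum of the immune markers was 71.8 to 85.3 FPKM with MinE07, 92.6 to 96.6 with C36 and 66.3 to 80.7 with vehicle. The part of these markers in the changes of the 9 genes was not tested.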

How the data were processed

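Gene levels were deposited by the authors as FPKM, in a separate file for each library, made with HISAT2 and Cuffdiff on GRCh38.p12 (hg38), per the submitters' processing notes, which give no versions or roles. Per the labels' protocols, poly-A libraries from a stranded kit were read as pairs of 100 bases. Per the series record, replicates are biologically independent.

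Each file has 68271 entries. The 1874 without a gene name and 31 with repeated names were left out (at most 0.00494% of a library's FPKM). The files hold no counts, and relative depth was computed from ratios of low values. Values were analysed as log2(FPKM + 0.5) with robust and trended moderation in limma 3.58.1 (statmod 1.5.0, R 4.3.3), for genes with a mean of at least 1 FPKM over the fit. Within each line, 9 libraries and 3 group means were fitted. Differences between lines were contrasts in 1 fit of 36 libraries. Counts between lines, and the shares of all genes beside them, cover genes with a mean of at least 1 FPKM in both lines, a restriction added after the values were seen. Tests were two-sided, with Benjamini-Hochberg adjustment over all genes tested in a comparison, a threshold of 0.05 and 95% intervals. The fits were tested on simulated data. Tables and figures were made with Python 3.11.15, pandas 2.3.3, numpy 2.4.6 and matplotlib 3.10.9.

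The 9 genes and the gene lists were chosen with earlier results of these data known. All 9 are named in every comparison. From other lists, up to 3 called genes per line with the largest change between MinE07 and C36 are named, and for likeness the 3 genes with the highest correlation. The ETV4, SPRED3 and DHX8 remarks on overlap and direction were chosen after the values were seen. Marker genes named were chosen after their values were seen. Other pseudocounts, no filter, rescaling, a replicate block, further copies of a name left out, no moderation, other library sets and leaving out each library were tried.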

Additional observations from a re-analysis of the deposited data

Results flagged for a closer look

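The tested difference between lines in the change from C36 to MinE07 passed an adjusted p under 0.05 in limma for the following genes, each with at least 1 FPKM on average in both lines. Between H3255 and H1975 these were SPRED2 at -0.44, ETV5 at 0.25 and SPRY4 at -0.19. The SPRY4 value was -0.08 (adjusted p = 0.702) with 0.1 added to FPKM in place of 0.5, and the ETV5 call was lost with no filter and with medians of ratios. Between H3255 and H820 it was SPRED2 at -0.39, and between H1975 and H820 ETV4 at -0.47. ETV4 was under 1 FPKM in H820 with both aptamers (0.827 with MinE07, 0.941 with C36), so that the added 0.5 limits its change there. Between H3255 and A549 they were SPRY4 at -0.68, ETV1 at -0.61, SPRED2 at -0.47 and ETV4 at -0.30. Between H1975 and A549 they were ETV4 at -0.55, SPRY4 at -0.49, ETV1 at -0.44 and ETV5 at -0.37.

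SPRED3 is listed because all its MinE07 libraries lay above C36 in H3255 and below C36 in H1975 and A549. The floor on low values kept it out of the tests above. Without the floor the difference was 0.51 between H3255 and H1975 (adjusted p = 0.000226) and 0.28 between H3255 and A549 (adjusted p = 0.0381). SPRED3 was picked by these same values, so that these limma p-values are no independent support. Its change from C36 to MinE07 passed in none of these lines without the floor.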

How the results depend on the processing

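The main fits did not pair libraries by replicate number, and the labels' numbers showed weak pairing at most. Same-numbered libraries of different treatments had deviations correlated over 0.1 in 4 of 9 pairs in H820, 3 in H3255, 1 in H1975 and 0 in A549. The same-numbered library was the most correlated of the other treatment in 5 of 9 pairs in H820, 2 in H3255, 1 in H1975 and 1 in A549. With a replicate block, the count of genes called fell from 1 to 0 for C36 against vehicle in H3255 and in A549 and from 2 to 0 for MinE07 against vehicle in H820, and was 7 in place of 8 for MinE07 against C36 in H3255 and 5 in place of 6 in H1975.

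With no filter, the count was 4 in place of 7 for MinE07 against vehicle in H1975, 0 in place of 2 in H820, and 0 in place of 1 for C36 against vehicle in H3255 and A549. Without moderation it was 0 for C36 against vehicle in H3255 and 0 for MinE07 against vehicle in H820. With all 36 libraries in 1 fit it was 1 in place of 0 for C36 against vehicle in H1975 and 2 in H820. Those 2 include ETV1, which is under the floor in H820 and entered that fit only through the other lines. For MinE07 against C36 the count in the same fit was 2 in place of 0 in H820 and 1 in A549. With a pseudocount of 0.1 or of 1 it was 2 in place of 1 for the response of H3255 minus H820. ETV5 between H1975 and A549 vehicle levels reversed to -0.15 with medians of ratios. The cause of each was not tested.

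Leaving out 1 library gave, for MinE07 against C36, 4 to 6 in H1975, 5 to 7 in H3255, and 0 to 0 in H820 and A549. For MinE07 against vehicle it gave 0 to 0 in A549, 0 to 2 in H820, 4 to 6 in H1975 and 6 to 6 in H3255. For C36 against vehicle it gave 0 to 1 in H3255, H820 and A549 and 0 to 0 in H1975. For the responses it gave 1 to 3 (H3255 minus H1975), 1 to 2 (H3255 minus H820), 1 to 1 (H1975 minus H820), 3 to 4 (H3255 minus A549), 4 to 4 (H1975 minus A549) and 0 to 1 (H820 minus A549). For vehicle levels it gave 7 to 7 for H1975 minus A549, 5 to 5 for the pairs with H820 and 8 to 8 for the other pairs.

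Over single genes, 2967 of the values under other settings kept direction and side of the threshold, 117 lost and 20 gained a call, and 1 reversed. Medians of ratios moved the share of calls that were higher from 55.4% to 39.3% for MinE07 against vehicle in H3255, from 53.7% to 22% for C36 there, from 66.0% to 55.3% for MinE07 in H820, from 60.4% to 46.7% for C36 in A549, and from 34.0% to 23.2% for the response of H820 minus A549. For vehicle levels that share moved from 61.9% to 50.8% (H1975 minus A549) and from 59.7% to 49.7% (H1975 minus H820). Levels under about 0.5 FPKM, as for SPRY4 and ETV1 in H820 and SPRED3 everywhere, limit what could be seen.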
